A study of Oryza sativa with 80 samples.

Results

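Of 42189 rice genes counted, 9 belong to the unfolded protein response of the endoplasmic reticulum (ER) as chosen here. They were chosen by locus ID: the transcription factors bZIP39 (LOC_Os05g34050), bZIP60 (LOC_Os07g44950) and bZIP50, also called bZIP74 (LOC_Os06g41770), the chaperones BiP1 (LOC_Os02g02410) and GRP94 (LOC_Os06g50300), the protein disulfide isomerases PDIL1-1 (LOC_Os11g09280) and PDIL2-3 (LOC_Os09g27830), and calreticulin (LOC_Os07g14270) and calnexin (LOC_Os04g32950). All 9 passed the expression filter in whole leaves, which kept 25103 genes. The names come with the rule that chose the genes, because the deposited files give locus IDs alone. Of the 9 names, 6 were found in a RefSeq gene table for rice (assembly ASM3414082v1), each on the chromosome that the locus ID gives.

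The study measured poly(A) RNA in leaf 3 of rice seedlings, once mature, cut into segments of which 2 (nearest the base) to 6 (nearest the tip) were sequenced. The groups were D40 (soil watered to 1.5 g water for each g of dry soil, a drought that limits growth, 12 days old, 30 min at 40 °C), W40 (well-watered at 3 g/g, 10 days old, 30 min at 40 °C), D30 (1.5 g/g, 12 days old, 30 °C) and W30 (3 g/g, 10 days old, 30 °C). Each treatment had 4 pools of 3 leaves, and the 5 segments of each pool gave 80 libraries from 16 pools. Drought leaves were also older than well-watered leaves at collection, so soil water and age cannot be told apart.

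The ER is where secreted and membrane proteins fold. When unfolded proteins build up in it, plant cells raise the genes of its folding machinery through bZIP transcription factors: some are held in the ER membrane and released by cutting, and in rice the bZIP50 mRNA is spliced by the ER sensor IRE1, which turns on its product. BiP1 is the ER form of HSP70 and GRP94 that of HSP90, disulfide isomerases form and rearrange disulfide bonds, and calreticulin and calnexin hold glycoproteins while they fold. The tables count reads per gene, so the spliced and unspliced forms of bZIP50 were not told apart.

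Library totals ran from 53398019 to 128636996 counts. The labels place 7 pools in batch 1 and 9 in batch 2, without saying what a batch was, and W40 has 1 pool in batch 1. Values in CPM (counts scaled to library size) are from pool sums with TMM scaling. A gene is called where the adjusted p of edgeR's quasi-likelihood test is under 0.05. Log2 changes between treatments are estimates of a fit with a term for batch, so they need not equal the ratio of the group means printed beside them. As a check of the tissue, 3 loci entered as leaf markers were at 1371 CPM or more in every pool, while the meristem marker and 1 of 2 endosperm markers were at 0 in all 16 pools. The other endosperm marker was at 4.87 to 8.45 CPM. Fewer cells of a type and less RNA per cell cannot be told apart in such bulk samples.

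Levels scaled to gene length were compared with the authors' batch-corrected FPKM values, averaged over the segments of a pool. The lengths that these values imply ran from 2157 bases (bZIP50) to 5904 bases (GRP94). Whether they are lengths of transcripts or of genes with introns was not checked, so the order may not be one per transcript. In W30 leaves calnexin had the highest mean, 51.3 ± 27.1 FPKM (SD, n = 4), followed by PDIL1-1 at 47.2 ± 15.9, BiP1 at 34.2 ± 20.5, calreticulin at 29.2 ± 12.7 and GRP94 at 22.9 ± 10.6. The pools of neighbours in this order overlapped. The other 4 genes lay lower: bZIP39 at 6.19 ± 2.35, bZIP50 at 5.94 ± 2.07, PDIL2-3 at 5.90 ± 2.86 and bZIP60 at 2.93 ± 0.699 FPKM (SD, n = 4). The pools of GRP94 and bZIP39, neighbours in the order, did not overlap, nor did those of PDIL2-3 and bZIP60, while those of the others did. In W40 leaves bZIP60 had the highest mean of the 3 transcription factors, 19.5 ± 2.61 FPKM against 16.03 ± 2.13 for bZIP39 and 14.5 ± 3.45 for bZIP50 (SD, n = 4). The W40 pools of all 3 overlapped. In D40 leaves the means were 24.1 ± 4.52 FPKM for bZIP60, 17.2 ± 2.11 for bZIP39 and 9.98 ± 1.45 for bZIP50 (SD, n = 4). The D40 pools of bZIP60 and bZIP39 overlapped, while those of bZIP50 lay below both.

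Heat shock raised all 9 genes, in well-watered and in drought leaves alike. In well-watered leaves 9 of 9 were called higher in W40 than in W30, where 35.1% of the genes tested were called and 16.3% were called higher. Their log2 changes ran from 1.40 to 3.73 with a median of 3.13, beside a median of -0.08 over all genes tested. In drought leaves 9 of 9 were called higher in D40 than in D30, where 34.4% of the genes tested were called and 16.6% were called higher. Here the log2 changes ran from 1.35 to 3.43 with a median of 2.90, beside -0.05 over all genes tested. For each of the 9 genes every W40 pool lay above every W30 pool, and every D40 pool above every D30 pool. Of all genes tested, 13.5% lay wholly above in W40 and 12% in D40. Together the 9 genes took 0.179, 0.756, 1.04, 0.999% of the counts in the W40 pools, against 0.0473, 0.0911, 0.0663, 0.0650% in the W30 pools. They took 0.117, 0.155, 0.627, 0.565% in the D40 pools, against 0.0464, 0.0450, 0.0567, 0.0710% in the D30 pools.

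**Figure D1:**
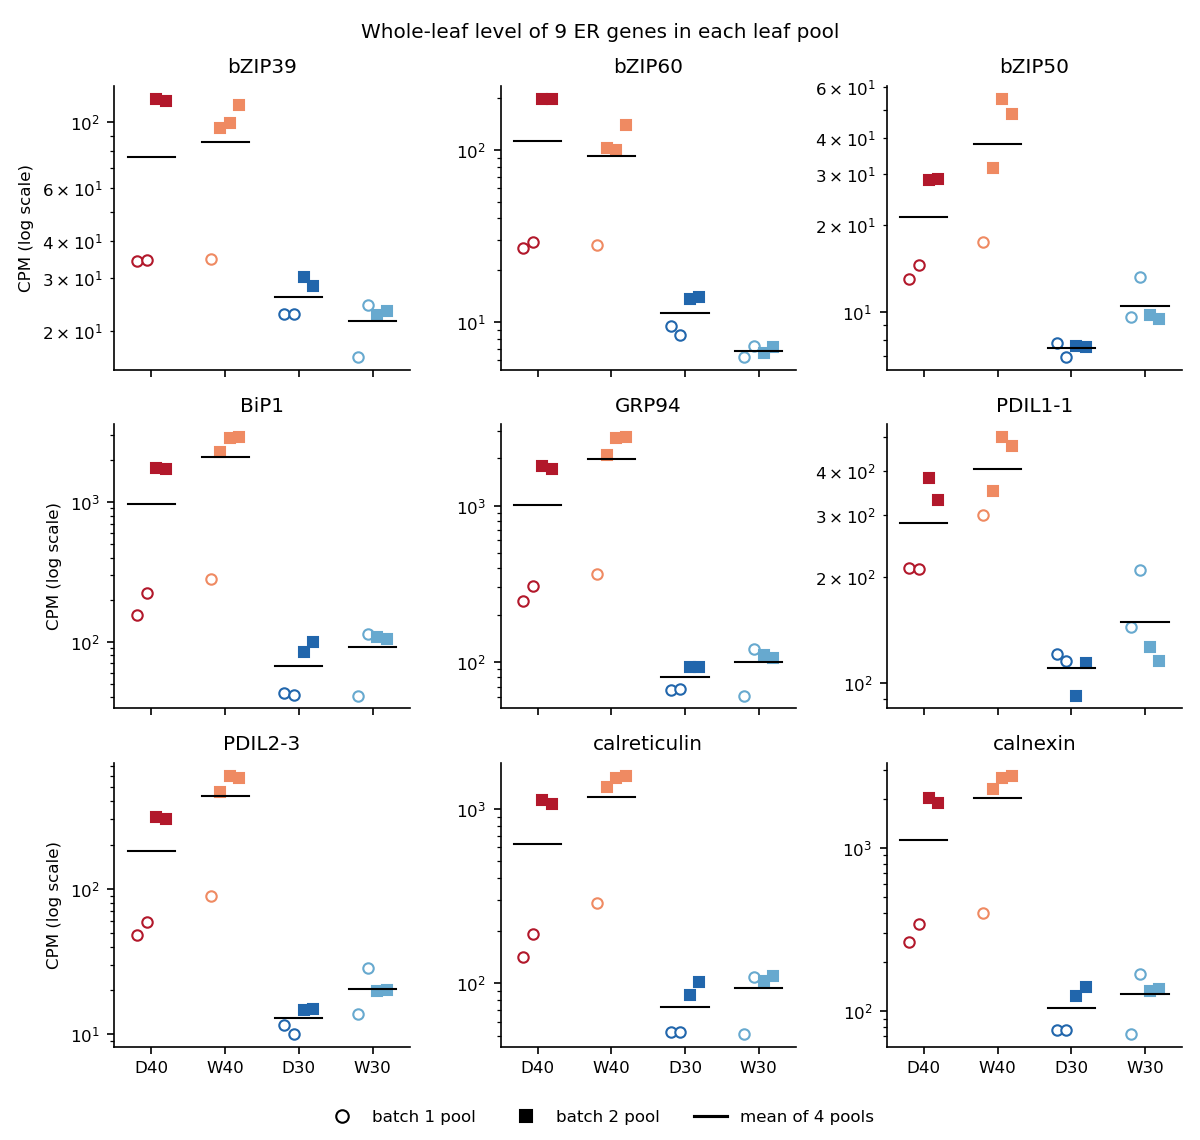
Whole-leaf level of each gene in CPM on a log axis, by treatment, with 1 symbol per leaf pool, open circles for batch 1, filled squares for batch 2, and a line at the mean of 4 pools. Every heated pool lies above every pool of the same soil water at 30 °C, and the heated pools part by batch.

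Among the transcription factors bZIP60, a membrane-held activator, had the largest log2 change with heat. In well-watered leaves it was at 28.1, 102, 100.0 and 139 CPM in the 4 W40 pools, against 6.26, 7.24, 6.58 and 7.16 CPM in the 4 W30 pools. The W40 pools are all higher, and 1 of them lies well below the other 3. The log2 change was 3.13 (standard error 0.48, edgeR adjusted p = 0.000331). In drought leaves bZIP60 was at 27.0, 29.2, 196 and 198 CPM in D40, against 9.46, 8.45, 13.6 and 13.9 CPM in D30. The D40 pools fall into a low and a high pair, both above D30. The log2 change was 2.90 (standard error 0.46, edgeR adjusted p = 0.000429).

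bZIP50, whose mRNA the ER sensor splices, had a smaller log2 change. It was at 17.4, 31.6, 54.7 and 48.4 CPM in the W40 pools, against 9.58, 13.2, 9.71 and 9.45 CPM in the W30 pools. The lowest W40 pool stood only a little above the highest W30 pool, and the log2 change was 1.65 (standard error 0.30, edgeR adjusted p = 0.00111). In drought leaves bZIP50 was at 13.0, 14.5, 28.7 and 28.9 CPM in D40, against 7.80, 6.95, 7.63 and 7.56 CPM in D30. Again no pools overlapped, and the log2 change was 1.42 (standard error 0.28, edgeR adjusted p = 0.00195). bZIP39, the other membrane-held factor, averaged 85.8 ± 35.0 CPM in W40 and 21.6 ± 3.61 CPM in W30 leaves (SD, n = 4 each), a log2 change of 1.61 (standard error 0.30, edgeR adjusted p = 0.00136). It averaged 76.5 ± 48.6 CPM in D40 and 26.0 ± 3.78 CPM in D30 leaves (SD, n = 4 each), a log2 change of 1.35 (standard error 0.29, edgeR adjusted p = 0.00309).

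Both luminal chaperones rose with heat in either soil. BiP1 was at 282, 2273, 2878 and 2906 CPM in the W40 pools, against 41.2, 113, 109 and 105 CPM in the W30 pools. The groups do not overlap, with 1 low pool in each. The log2 change in the fit with batch was 3.54 (standard error 0.59, edgeR adjusted p = 0.000567), or 11.7-fold, which is not the ratio of the group means. In drought leaves BiP1 was at 155, 224, 1764 and 1715 CPM in D40, against 43.1, 41.7, 84.9 and 100.5 CPM in D30. The 4 D40 pools again form a low and a high pair. The log2 change was 3.30 (standard error 0.55, edgeR adjusted p = 0.000612). GRP94 averaged 1976 ± 1111 CPM in W40 and 100.0 ± 26.6 CPM in W30 leaves (SD, n = 4 each). Its log2 change in the fit with batch was 3.61 (standard error 0.53, edgeR adjusted p = 0.000253). It averaged 1011 ± 850.1 CPM in D40 and 80.0 ± 15.3 CPM in D30 leaves (SD, n = 4 each), a log2 change of 3.20 (standard error 0.50, edgeR adjusted p = 0.000402).

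Of the disulfide isomerases, PDIL2-3 had the largest log2 change of the 9 genes in both soils, and PDIL1-1 changed least in well-watered leaves. PDIL2-3 was at 89.3, 467, 601 and 577 CPM in the W40 pools, against 13.9, 28.5, 19.9 and 20.2 CPM in the W30 pools. All W40 pools are higher, and the log2 change was 3.73 (standard error 0.55, edgeR adjusted p = 0.000242). In drought leaves PDIL2-3 was at 48.1, 59.3, 314 and 304 CPM in D40, against 11.6, 10.1, 14.7 and 15.02 CPM in D30, a log2 change of 3.43 (standard error 0.52, edgeR adjusted p = 0.000296). PDIL1-1 was at 299, 350.3, 498 and 471 CPM in the W40 pools, against 144, 209.6, 126 and 115 CPM in the W30 pools. The groups stay apart by less than for PDIL2-3, and the log2 change was 1.40 (standard error 0.25, edgeR adjusted p = 0.00104). In drought leaves PDIL1-1 was at 213, 211, 382 and 330.0 CPM in D40, against 121, 115, 92.2 and 114 CPM in D30, a log2 change of 1.35 (standard error 0.24, edgeR adjusted p = 0.00103).

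The 2 lectin chaperones also rose. Calnexin, which sits in the ER membrane, was at 402, 2285, 2675 and 2769 CPM in the W40 pools, against 72.6, 169.5, 133 and 136 CPM in the W30 pools. The log2 change was 3.24 (standard error 0.52, edgeR adjusted p = 0.000468). In drought leaves calnexin was at 264, 340.2, 2010.2 and 1872 CPM in D40, against 77.0, 76.3, 125 and 141 CPM in D30, a log2 change of 3.01 (standard error 0.49, edgeR adjusted p = 0.000509). Heated and unheated pools do not overlap in either soil. Calreticulin, its soluble relative, averaged 1170.2 ± 595 CPM in W40 and 93.4 ± 28.2 CPM in W30 leaves (SD, n = 4 each), a log2 change of 2.96 (standard error 0.45, edgeR adjusted p = 0.000321). It averaged 631 ± 538 CPM in D40 and 73.3 ± 24.9 CPM in D30 leaves (SD, n = 4 each), a log2 change of 2.69 (standard error 0.43, edgeR adjusted p = 0.000460).

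The size of the heat response differed between the 2 batches for every one of the 9 genes. In a fit of treatment by batch, BiP1 changed by 4.65 on the log2 scale in batch 2 (95% interval 3.80 to 5.49) and by 1.87 in batch 1 (95% interval 1.00 to 2.75) in well-watered leaves. The batch difference, batch 2 minus batch 1, was 2.78 (standard error 0.56, edgeR adjusted p = 0.00489). It was called higher for 9 of 9 genes in well-watered leaves, where 11.7% of the genes tested were called higher. In drought leaves it was called higher for 9 of 9 as well, where 13.2% were called higher. The differences ran from 1.11 (PDIL1-1) to 2.78 (BiP1) in well-watered leaves and from 0.94 (PDIL1-1) to 2.19 (bZIP60) in drought leaves. In drought leaves the call of PDIL1-1 was lost without any 1 of D30 replicates 1, 2 and 3 or D40 replicates 1, 2 and 3 (lowest value 0.80), and that of bZIP50 without any 1 of replicates 1, 3 and 4 of either group (lowest value 0.94). In well-watered leaves that of PDIL1-1 was lost without W30 replicate 4 (1.04).

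**Figure D2:**
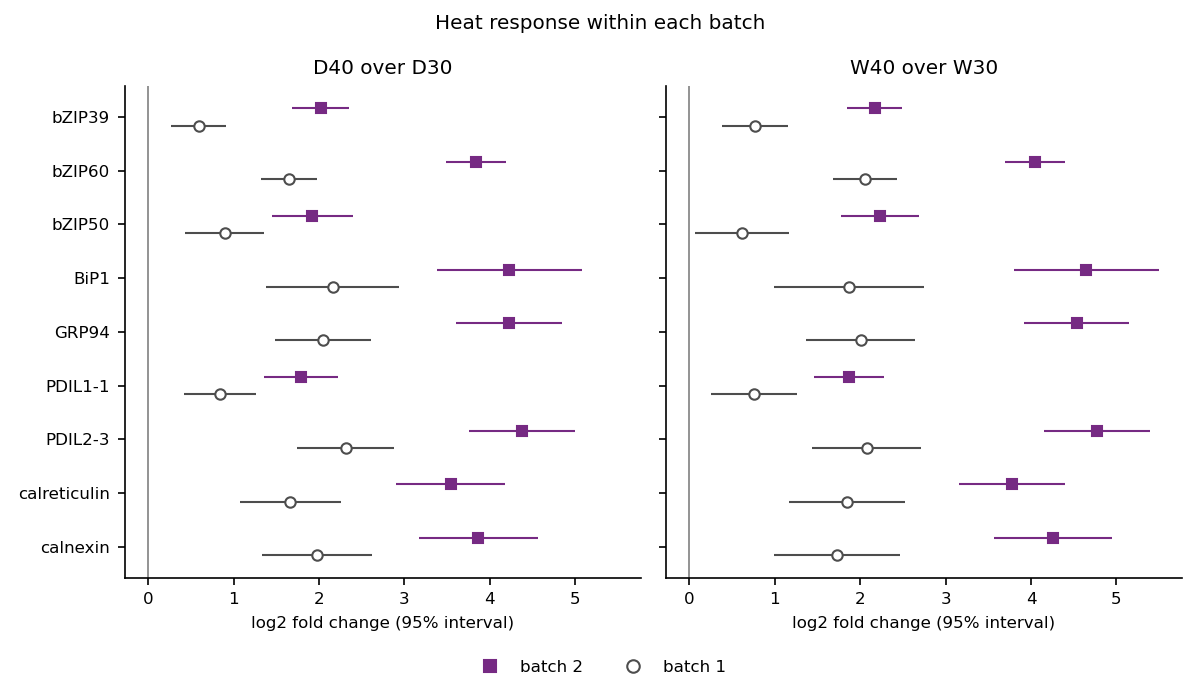
Log2 fold change with heat within batch 2 (filled squares) and batch 1 (open circles) for each gene, with 95% intervals, in drought leaves (left) and well-watered leaves (right). Every point lies above 0, and the batch 2 value lies to the right of the batch 1 value for all 9 genes.

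Within each batch the direction was the same. In batch 2 all 9 genes were called higher in W40 than in W30 (24.9% of the genes tested were called higher), with log2 changes of 1.87 to 4.78. In batch 1, with 1 W40 pool assumed to vary like the others, 8 of 9 were called higher (12.7% of the genes tested were called higher), with log2 changes of 0.62 to 2.08. The exception was bZIP50, at 0.62 (standard error 0.25, edgeR adjusted p = 0.102). In drought leaves all 9 were called higher in both batches, where 23.6% of the genes tested were called higher in batch 2 and 14.8% in batch 1. Fitted to batch 1 pools by themselves, 5 of 9 were called higher in W40 and 8 of 9 in D40. In the joint fit bZIP60 in drought leaves changed by 3.84 in batch 2 and by 1.65 in batch 1.

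A cytosolic heat gene moved with the same split. The locus entered as HSP101 (LOC_Os05g44340), a cytosolic disaggregase, reached 1223, 1539 and 1924 CPM in W40 in batch 2, against 68.9 CPM for the only W40 pool in batch 1. Among D40 pools, HSP101 reached 4334 and 6037 CPM in batch 2, against 127 and 279.6 CPM in batch 1. At 30 °C it stayed between 0.782 and 12.4 CPM. The part of this split in the batch difference of the ER genes was not tested.

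In the fit of treatment and batch, drought was not seen to change the heat response of these genes in whole leaves. That fit holds the heat response equal in both batches, though it was called different between them for 9 of 9 genes. Its standard errors therefore also take in that difference between batches, which widens its intervals. The interaction (the log2 heat response of drought leaves minus that of well-watered leaves) was called for 0 of 9 genes, where 0% of the genes tested were called by edgeR. For the 9 genes 0 had an unadjusted p under 0.05, and DESeq2 called 0. Over all genes 2841 of 25103 had an unadjusted p under 0.05 and DESeq2 called 465. The values ran from -0.40 for GRP94 (95% interval -1.78 to 0.97) to -0.056 for PDIL1-1 (95% interval -0.78 to 0.67). For BiP1 the value was -0.25 with an interval of -1.76 to 1.26, so a difference of more than 2-fold either way lies within it. In the fit of treatment by batch, 6 of the 9 values were positive in batch 1, which has 1 W40 pool, and 0 were in batch 2. In batch 2 of that fit 0 of 9 were called (0 at an unadjusted p under 0.05), where 18% of the genes tested were called. The sign of BiP1 also turned without W30 replicate 3 (0.029) or W30 replicate 4 (0.039). In the fits of single segments the interaction was called for 0 of 9 genes in each of segments 2 to 6 (0 at an unadjusted p under 0.05). With the batch 2 pools fitted by themselves, some of the 9 were called in segments 2 and 3. Shares over all genes are not given here for these segment fits.

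In the fit of treatment and batch, drought without heat left the 9 genes uncalled in whole leaves. In D30 against W30, 0 of 9 were called (0 at an unadjusted p under 0.05, and 0 by DESeq2), where 10.3% of the genes tested were called. Of the log2 values 7 were negative and 2, those of the membrane-held factors bZIP39 and bZIP60, were positive. bZIP60 was at 9.46, 8.45, 13.6 and 13.9 CPM in the D30 pools, against 6.26, 7.24, 6.58 and 7.16 CPM in the W30 pools. All 4 D30 pools are above all 4 W30 pools, and the log2 value was 0.61 (standard error 0.42, edgeR adjusted p = 0.392). bZIP50 had the opposite order, with 4 of 4 D30 pools (7.80, 6.95, 7.63 and 7.56 CPM) below 4 of 4 W30 pools (9.58, 13.2, 9.71 and 9.45 CPM) and a log2 value of -0.51 (standard error 0.28, edgeR adjusted p = 0.268). The other 7 genes overlapped between D30 and W30 over both batches, where 15% of the genes tested lay wholly apart. With 2 pools against 2 in batch 2, D30 lay above W30 for bZIP39 and bZIP60 and below for 6 genes, and calnexin overlapped. Of the genes tested 38.2% lay above there and 35% below, 73.2% in all. In batch 1 bZIP60 lay above, PDIL1-1, PDIL2-3 and bZIP50 lay below and 5 overlapped. Of the genes tested 28.9% lay above there and 26% below, 54.9% in all. BiP1 had a value of -0.65 (standard error 0.50, edgeR adjusted p = 0.441), and this sign rests on 1 W30 pool: without W30 replicate 2, which held 113 CPM, it was 0.095. Without that pool GRP94, at 0.15, calnexin, at 0.19, and calreticulin, at 0.071, were also positive. Other fits called some of the 9: on the authors' batch-corrected counts PDIL1-1, PDIL2-3 and bZIP50 were lower and bZIP60 higher, and the mean of the batches in a treatment-by-batch fit, added after seeing the data, called the same 4. Over all genes these fits called 3665 and 8164.

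**Figure D3:**
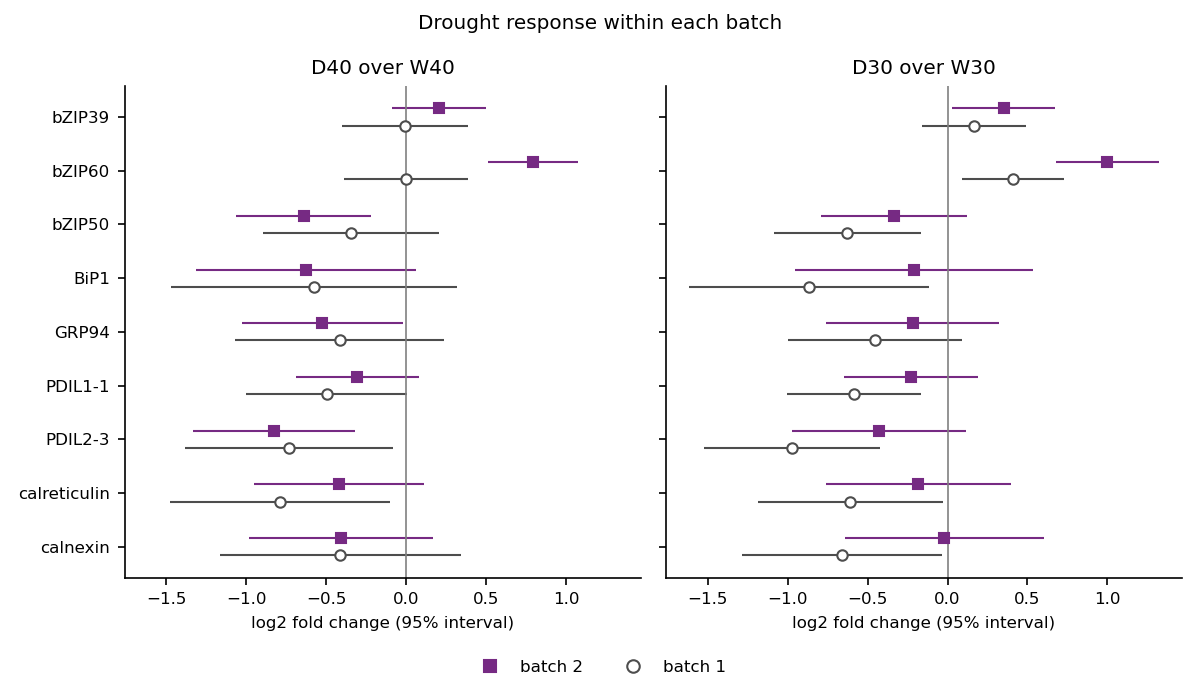
Log2 fold change with drought within batch 2 (filled squares) and batch 1 (open circles) for each gene, with 95% intervals, at 40 °C (left) and at 30 °C (right). bZIP60 lies above 0 in batch 2 at both temperatures, whereas most other genes lie at or below 0.

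Within batches the treatment-by-batch fit called 1 gene in each at 30 °C. In batch 2, bZIP60 was higher in D30 than in W30, with a log2 change of 1.00 (standard error 0.15, edgeR adjusted p = 0.000373), and no other member was called, where 19.3% of the genes tested were called higher. In batch 1, PDIL2-3 was lower in D30, with a log2 change of -0.97 (standard error 0.25, edgeR adjusted p = 0.0267), and no other member was called, where 6.3% were called lower. With the batch 2 pools fitted by themselves 3 were called, bZIP39 and bZIP60 higher and PDIL2-3 lower, where 8458 genes were called in all. The drought response at 30 °C was called different between batches for 0 of 9 genes (1, bZIP60, at an unadjusted p under 0.05), where 12% of the genes tested were called. Without W30 replicate 1 it was called for 5 of 9, and without W40 replicate 4 for 1.

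At 40 °C the fit of treatment and batch called no gene either, while some other fits called 2 to 7. In D40 against W40, 0 of 9 genes were called (0 by DESeq2), where 14.1% of the genes tested were called, and 8 of the 9 log2 values were negative. The 2 with an unadjusted p under 0.05 were PDIL2-3 at -1.09 (standard error 0.47, edgeR adjusted p = 0.132) and bZIP50 at -0.73 (standard error 0.28, edgeR adjusted p = 0.0971). Without W40 replicate 1, the W40 pool of batch 1, both were called, PDIL2-3 at -1.41 and bZIP50 at -0.98. On the authors' batch-corrected counts 3 were called lower (BiP1, PDIL2-3 and calreticulin), and limma on FPKM called 2 lower (PDIL2-3 and calreticulin). The mean of the batches called PDIL2-3, calreticulin and bZIP50 lower and bZIP60 higher. Over all genes these 3 fits called 3573, 2575 and 7826. All 9 genes overlapped between the D40 and W40 pools, whose levels part by batch, where 11.3% of the genes tested lay wholly apart. Within batch 2, D40 lay below W40 for 6 genes and above for bZIP39 and bZIP60, and PDIL1-1 overlapped. Of the genes tested 33.5% lay below there and 33.1% above, 66.6% in all. Within batch 1, both D40 pools lay below the 1 W40 pool for 8 genes and bZIP60 overlapped. Of the genes tested 39.6% lay below there and 38.8% above, 78.4% in all. The 6 genes below in both batches were BiP1, GRP94, PDIL2-3, calreticulin, calnexin and bZIP50. The share of all genes below in both batches was not counted. With the batch 2 pools fitted by themselves these 6 were called lower and bZIP60 higher, where 12265 genes were called in all. In batch 2 of the treatment-by-batch fit, where 48.7% of the genes tested were called, 3 of the 9 were. PDIL2-3 was at 314 and 304 CPM in D40, against 467, 601 and 577 CPM in W40. This difference was called lower, at -0.83 (standard error 0.23, edgeR adjusted p = 0.0117). bZIP50 was at 28.7 and 28.9 CPM in D40, against 31.6, 54.7 and 48.4 CPM in W40, and was called lower at -0.64 (standard error 0.19, edgeR adjusted p = 0.0166). bZIP60 went the other way, at 196 and 198 CPM in D40 against 102, 100.0 and 139 CPM in W40, and was called higher at 0.79 (standard error 0.13, edgeR adjusted p = 0.000420). In batch 1 of that fit, 0 of 9 genes were called (2 at an unadjusted p under 0.05), where 2.19% of the genes tested were called, and bZIP60 was at 27.0 and 29.2 CPM in D40 against 28.1 CPM in W40. The drought response of bZIP60 at 40 °C was called different between batches, by 0.79 (standard error 0.22, edgeR adjusted p = 0.0205), where 13.6% of the genes tested were called higher. The other 8 were not called, and the call of bZIP60 was lost without D40 replicate 1 (0.74) or D40 replicate 4 (0.77). Loci entered as drought checks varied widely among D40 pools. RAB16A (LOC_Os11g26790) ran from 0.0724 to 901 CPM in D40, against at most 0.0325 CPM in W40. LEA3 (LOC_Os05g46480) ran from 0.120 to 373 CPM in D40, and its lowest D40 pool lay within the W40 range of 0.0195 to 0.150 CPM. The part of this spread in D40 against W40 was not tested.

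Heat raised the genes all along the blade. In each of the 5 segments 9 of 9 were called higher with heat in well-watered leaves, where 14.9%, 15.2%, 13.9%, 12.7% and 13.6% of the genes tested were called higher in segments 2 to 6 in order. In each of the 5 segments 9 of 9 were also called higher in drought leaves, where 13%, 13.9%, 15.3%, 14.2% and 14.5% were called higher in that order. The log2 change of bZIP60 in drought leaves was 2.47 (standard error 0.46, edgeR adjusted p = 0.00198) in segment 2 and 3.08 (standard error 0.39, edgeR adjusted p = 7.16e-05) in segment 6. That of calreticulin in well-watered leaves was 3.17 (standard error 0.49, edgeR adjusted p = 0.000385) in segment 2 and 2.77 (standard error 0.37, edgeR adjusted p = 0.000119) in segment 6. Whether such values differ along the blade was tested through the gradients.

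In the edgeR fit of treatment and batch, the drought calls in single segments were all in segment 6. PDIL1-1 was lower in segment 6 of D30 than of W30, at 99.0, 95.3, 94.9 and 117 CPM against 155, 168, 226 and 202 CPM. No D30 library reached a W30 library there, and the log2 change was -0.84 (standard error 0.18, edgeR adjusted p = 0.0134). It was the 1 gene called of 9, where 3.31% of the genes tested were called lower. At 40 °C PDIL1-1 and bZIP50 were the 2 called of 9 in segment 6, both lower in D40, where 5.87% of the genes tested were called lower. PDIL1-1 was at 197, 211, 389.5 and 318 CPM in D40, against 264, 473, 705 and 607 CPM in W40, a log2 change of -0.71 (standard error 0.19, edgeR adjusted p = 0.0264). bZIP50 was at 14.9, 17.6, 32.4 and 27.1 CPM in D40, against 17.5, 55.8, 90.3 and 74.9 CPM in W40, a log2 change of -1.10 (standard error 0.28, edgeR adjusted p = 0.0242). The D40 and W40 libraries overlap for both genes, with the lowest values of both groups in batch 1. These calls rest on single pools: 0 of 9 were called at 30 °C without D30 replicate 3 and 2 without W40 replicate 1, and at 40 °C 0 without W40 replicate 3, W40 replicate 4 or D40 replicate 4, 1 without D40 replicate 3 and 7 without W40 replicate 1. With no term for batch, 0 of 9 were called in segment 6 at either temperature. In segments 2 to 5, edgeR called 0 of 9 for drought at either temperature, with 0, 0, 0 and 2 at an unadjusted p under 0.05 at 30 °C and 1, 0, 0 and 3 at 40 °C in the order of the segments. Of the genes tested 5.47%, 7.32%, 7.43% and 7.13% were called there at 30 °C, and 9.11%, 8.11%, 7.45% and 8.1% at 40 °C. DESeq2 called 1 in these segments, in segment 5 at 40 °C, and edgeR called 1 there without W40 replicate 1. With the batch 2 pools fitted by themselves, each segment had calls. At 30 °C these were 2, 4, 1, 3 and 7 of 9 in segments 2 to 6, where 4985 to 6140 genes were called in all. Those in segments 2 to 4 were higher in D30, and 6 of the 7 in segment 6 were lower. At 40 °C they were 6, 6, 2, 4 and 8, where 7777 to 8957 genes were called in all, with 1 higher in each segment and the others lower in D40.

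In W30 leaves most of these genes rose from base to tip. The gradient was fitted as the log2 change per segment toward the tip, with leaf pool as a block, and 7 of 9 genes were called higher toward the tip, where 36.2% of the 23888 genes tested were called and 20.3% higher. The 7 were BiP1, GRP94, both disulfide isomerases, both lectin chaperones and bZIP50. PDIL1-1 was at 155, 168, 226 and 202 CPM in segment 6 of the W30 pools, against 126, 211, 75.0 and 64.9 CPM in segment 2. It is higher at the tip in 3 of 4 pools. Its gradient was 0.23 (standard error 0.039, edgeR adjusted p = 4.04e-06). BiP1 was at 52.4, 97.8, 139 and 169 CPM in segment 6, against 29.6, 101, 78.3 and 63.5 CPM in segment 2. Again 3 of 4 pools are higher at the tip, and the gradient was 0.21 (standard error 0.035, edgeR adjusted p = 2.26e-06). The block takes up differences in level between pools, while pools of a treatment share a single gradient in the fit. The p-values of gradients, here and below, thus do not measure how gradients vary between pools. Segment 6 over segment 2 ran from 0.964 to 2.67 over the W30 pools for BiP1 and from 0.797 to 3.12 for PDIL1-1. Gradients of the other 5 called genes were 0.12 (PDIL2-3 and calnexin), 0.16 (bZIP50), 0.18 (calreticulin) and 0.19 (GRP94). The call was lost without W30 replicate 3 for PDIL2-3 (0.099) and bZIP50 (0.094), and without W30 replicate 4 for PDIL2-3 (0.049) and GRP94 (0.093). With no leaf pool block 0 of 9 genes were called. bZIP39, at 0.0073, and bZIP60, at -0.012, were not called.

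The W30 gradient was called steeper in batch 2 for 6 of the 7 genes. In a fit by batch, added after seeing the data, the difference (batch 2 minus batch 1) was called higher for 6 of 9 genes, where 10.2% of the genes tested were called higher. PDIL1-1 had a gradient of 0.42 in batch 2 (95% interval 0.35 to 0.49) and of -0.0031 in batch 1 (95% interval -0.077 to 0.071). Within batch 2 the same number, 7 of 9, were called higher, where 18.3% of the genes tested were called higher. Within batch 1 the 2 lectin chaperones were, calnexin at 0.12 (standard error 0.034, edgeR adjusted p = 0.00534) and calreticulin at 0.087 (standard error 0.034, edgeR adjusted p = 0.0499), where 14.3% were called higher. Calnexin had near equal gradients in both batches, 0.13 in batch 2 and 0.12 in batch 1, with an interval of the difference of -0.088 to 0.10. In the 2 batch 2 pools GRP94 was at 139 and 189 CPM in segment 6 and 77.7 and 70.3 CPM in segment 4. Of the batch 1 pools, replicate 1 also rose toward the tip for some genes: segment 6 over segment 2 was 1.83 for calnexin, 1.77 for BiP1 and 1.62 for calreticulin. In replicate 2 these ratios were 1.06, 0.964 and 0.980, and in the batch 2 pools that of calnexin was 1.20 and 1.59.

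**Figure D4:**
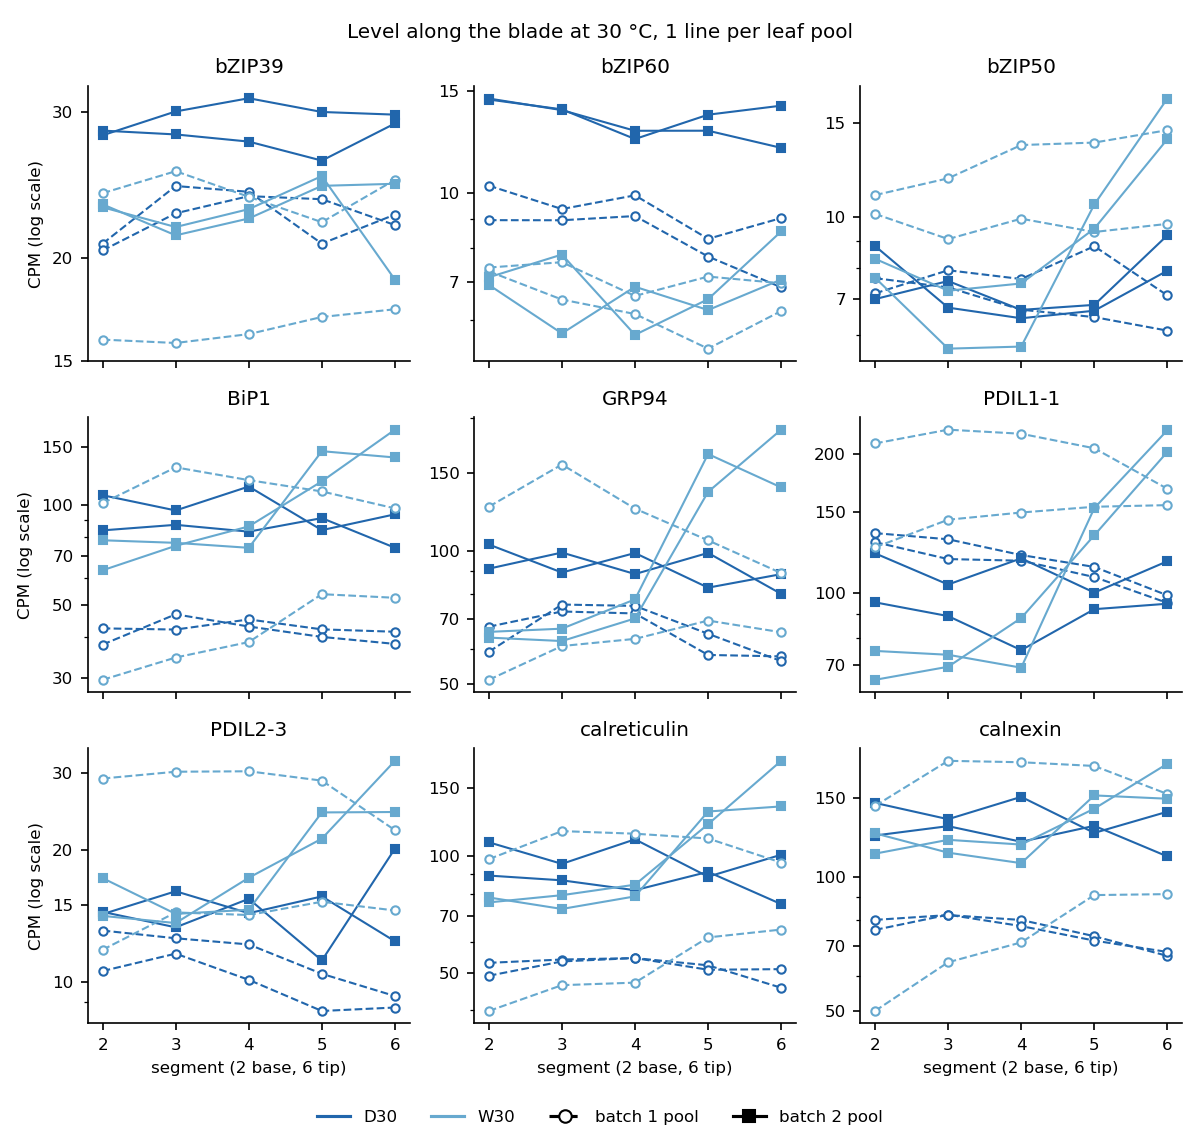
Level of each gene in CPM on a log axis along the blade at 30 °C, from segment 2 near the base to segment 6 near the tip, with 1 line per leaf pool, for D30 (dark) and W30 (light), solid with squares in batch 2 and dashed with circles in batch 1. The 2 W30 pools of batch 2 climb in segments 5 and 6 for 7 genes, while the D30 lines stay near level.

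In drought leaves at 30 °C no such rise was called. In D30, 0 of 9 genes were called higher toward the tip and 1, bZIP60, was called lower, at -0.056 (standard error 0.021, edgeR adjusted p = 0.0441), where 24.5% of the genes tested were called. That call was lost without any 1 of D30 replicates 1 (-0.059), 2 (-0.047) and 3 (-0.053), W40 replicate 1 or D40 replicate 1. BiP1 was at 41.4, 38.0, 74.3 and 93.8 CPM in segment 6 of the D30 pools, against 42.3, 37.8, 83.9 and 107 CPM in segment 2, so the 2 ends differ little within each pool. The gradient of D30 minus that of W30 was called lower for 6 of 9 genes, where 6.38% of the genes tested were called and 3.78% lower. The 6 were PDIL1-1 at -0.28 (standard error 0.055, edgeR adjusted p = 0.000637), GRP94 at -0.24 (standard error 0.061, edgeR adjusted p = 0.00782), BiP1 at -0.24 (standard error 0.050, edgeR adjusted p = 0.00133), calreticulin at -0.21 (standard error 0.038, edgeR adjusted p = 0.000175), calnexin at -0.17 (standard error 0.036, edgeR adjusted p = 0.00179) and PDIL2-3 at -0.16 (standard error 0.052, edgeR adjusted p = 0.0428). bZIP50 had a value close to theirs, -0.16, and was not called (edgeR adjusted p = 0.0618). The call of GRP94 was lost without W30 replicate 3 (-0.19) or W30 replicate 4 (-0.15), and that of PDIL2-3 in 10 of 16 fits that left out 1 pool. bZIP50 was called without W30 replicate 1 (-0.21) or W40 replicate 1. Within batch 2, 7 of 9 differences were called lower, where 9.75% of the genes tested were called lower. Within batch 1, calnexin alone was called, at -0.18 (standard error 0.048, edgeR adjusted p = 0.0177), where 1.9% were called lower. The difference was called more negative in batch 2 than in batch 1 for GRP94, PDIL1-1 and calreticulin, where 6.12% of the genes tested were called lower.

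**Figure D5:**
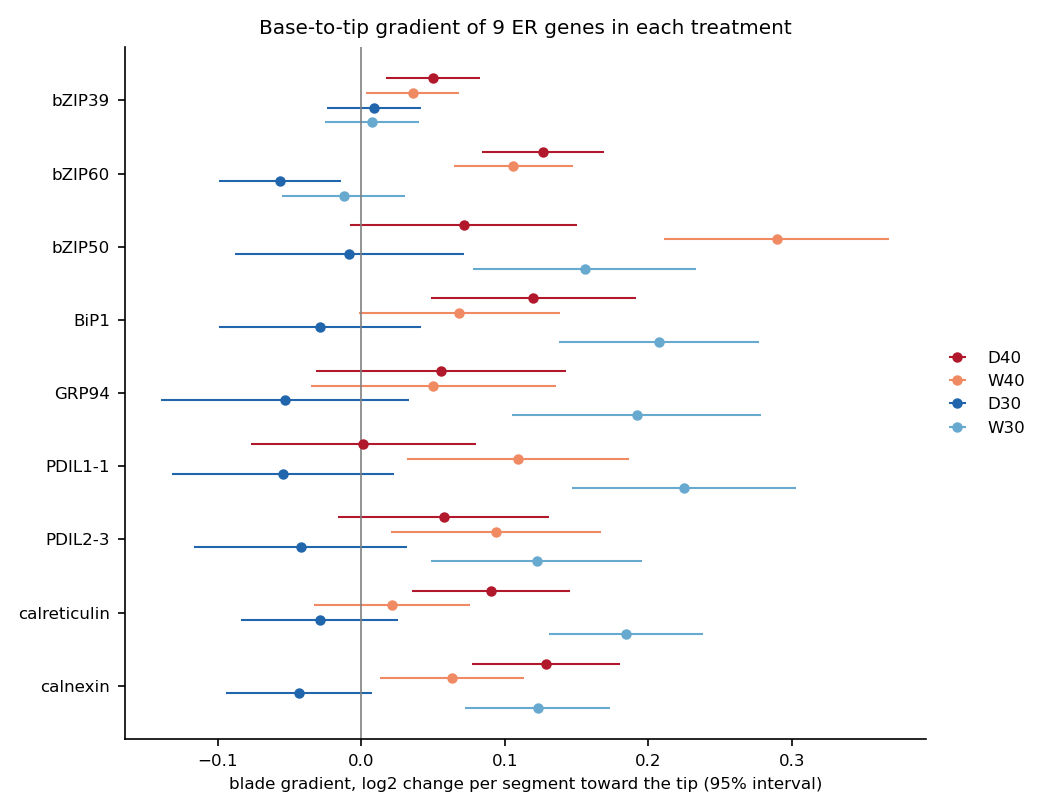
Blade gradient of each gene in the 4 treatments, as the log2 change per segment toward the tip, with 95% intervals. For BiP1, GRP94, both disulfide isomerases and both lectin chaperones the D30 value lies left of the W30 value, and for bZIP60 both 40 °C values lie right of both 30 °C values.

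After heat the gradients over both batches were positive for all 9 genes in both soils, and 5 were called in each. In W40, 5 of 9 were called higher toward the tip, where 21.7% of the genes tested were called higher: bZIP50, bZIP60, PDIL1-1, PDIL2-3 and calnexin. bZIP50 had the steepest, 0.29 (standard error 0.039, edgeR adjusted p = 1.26e-08). It was at 17.5, 55.8, 90.3 and 74.9 CPM in segment 6 of the W40 pools, against 17.8, 23.9, 27.3 and 32.6 CPM in segment 2, and thus rose in the 3 batch 2 pools and not in the batch 1 pool. In D40, 5 of 9 were called higher toward the tip, where 16.3% were called higher: calnexin at 0.13 (standard error 0.026, edgeR adjusted p = 5.96e-05), bZIP60 at 0.13 (standard error 0.021, edgeR adjusted p = 2.97e-06), BiP1 at 0.12 (standard error 0.036, edgeR adjusted p = 0.00718), calreticulin at 0.090 (standard error 0.028, edgeR adjusted p = 0.00845) and bZIP39 at 0.050 (standard error 0.016, edgeR adjusted p = 0.0154). Without W40 replicate 2, 3 or 4, 2 of 9 genes were called in W40, and without W40 replicate 1, 8. Without D40 replicate 2, 2 were called in D40. In W40 the gradient was steeper in batch 2 than in batch 1 for 6 of 9 genes, where 5.77% of the genes tested were called higher. In the 1 W40 pool of batch 1, 7 gradients were negative and 2 positive, with 0 called (3 at an unadjusted p under 0.05), where 9.41% of the genes tested were called. In that pool segment 6 over segment 2 was 0.803 for BiP1, 0.639 for GRP94, 0.823 for calreticulin and 0.811 for calnexin. In batch 2 all 9 W40 gradients were positive and 8 were called, where 23.1% were called higher. In D40, 9 were positive and 2 called in batch 2, where 11% were called higher, and 8 were positive and 4 called in batch 1, where 16.5% were. For D40, 0 of 9 were called between batches (0 at an unadjusted p under 0.05), where 12.4% were.

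A change of gradient with heat was called for 2 of 9 genes in each soil. At an unadjusted edgeR p under 0.05 there were 6 in W40 over W30, where 3 of the 9 values were positive and 6 negative. In D40 over D30 there were 4, and all 9 values were positive. bZIP60 was the gene whose gradient was called steeper with heat in both soils, by 0.12 (standard error 0.030, edgeR adjusted p = 0.00819) in W40 over W30 and by 0.18 (standard error 0.030, edgeR adjusted p = 0.000137) in D40 over D30. It was at 29.9, 38.2, 220.4 and 174 CPM in segment 6 of the D40 pools, against 20.6, 23.3, 159 and 161 CPM in segment 2, and every pool is higher at the tip. In batch 2 fitted by itself neither was called, at 0.084 in W40 over W30 and 0.13 in D40 over D30, and 0 of 9 genes were called in D40 over D30 (93 over all genes). In batch 1 fitted by itself, added after seeing the data, both were, at 0.18 and 0.23. In all 4 D30 pools it is lower at the tip, at 9.03, 6.84, 12.0 and 14.2 CPM against 10.3, 8.95, 14.6 and 14.5 CPM. The 2 genes called of 9 in well-watered leaves were bZIP60 and calreticulin, with the calreticulin gradient lower in W40, at -0.16 (standard error 0.038, edgeR adjusted p = 0.00362), where 5.83% of the genes tested were called. The call of bZIP60 was lost without W30 replicate 1 (0.10) and that of calreticulin without W30 replicate 4 (-0.12), while 5 of 9 were called without W30 replicate 2. The 2 called in drought leaves were bZIP60 and calnexin, at 0.17 (standard error 0.036, edgeR adjusted p = 0.00633), where 0.289% of the genes tested were called higher. The call of calnexin was lost without D30 replicate 1 (0.16) or D40 replicate 2 (0.14). Between the heated leaves the gradient of bZIP50 was lower in D40 than in W40, with a difference of -0.22 (standard error 0.056, edgeR adjusted p = 0.00499), the 1 call of 9 where 5.78% of the genes tested were called lower. In batch 1 taken alone this difference had the other sign, 0.11. Without W40 replicate 3 it was -0.16 and not called, and without W40 replicate 1, 2 of 9 genes were called. W30 leaves enter both the heat and the drought difference in gradient, and D30 leaves do too, so these differences are not independent of each other.

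Of 20 other loci listed under ER folding, 16 passed the filter. In W40 against W30, 10 of the 16 were called higher and 1 lower, with a median log2 change of 0.43, beside the 9 of 9 above. Of all genes tested 16.3% were called higher there and 35.1% in either direction. The 4 loci listed as other luminal HSP70 genes did not pass, with at most 0.0646 CPM in any pool. Of 10 other disulfide isomerase-like loci 4 were higher and 1 lower, both other calreticulin loci were higher, and so were all 4 loci listed as sensor, oxidase and other ER stress genes. LOC_Os03g52340 of the last list averaged 88.2 ± 35.2 CPM in W40 and 8.45 ± 1.83 CPM in W30 leaves (SD, n = 4 each), a log2 change of 3.06 (standard error 0.27, edgeR adjusted p = 5.97e-06). LOC_Os03g61670, a calreticulin locus of low level, averaged 11.1 ± 8.74 CPM in W40 and 0.467 ± 0.276 CPM in W30 leaves (SD, n = 4 each), a log2 change of 3.96 (standard error 0.46, edgeR adjusted p = 4.74e-05). The disulfide isomerase-like LOC_Os04g35600 was lower, at 2.64 ± 1.38 CPM in W40 and 4.12 ± 1.06 CPM in W30 leaves (SD, n = 4 each), a log2 change of -0.49 (standard error 0.16, edgeR adjusted p = 0.0312).

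In D40 against D30, 5 of the 16 other loci were higher and 1 lower, with a median log2 change of 0.33. Of all genes tested 16.6% were called higher there and 34.4% in either direction. LOC_Os03g52340 averaged 56.4 ± 27.5 CPM in D40 and 9.52 ± 2.19 CPM in D30 leaves (SD, n = 4 each), a log2 change of 2.48 (standard error 0.26, edgeR adjusted p = 2.09e-05). LOC_Os04g35600 was again the lower one, with a log2 change of -0.58 (standard error 0.16, edgeR adjusted p = 0.0145). In D40 against W40 the disulfide isomerase-like LOC_Os02g34940 was higher, at 1.88 ± 1.66 CPM in D40 and 0.549 ± 0.175 CPM in W40 (SD, n = 4 each), a log2 change of 1.76 (standard error 0.56, edgeR adjusted p = 0.0496). The calreticulin locus LOC_Os05g43170 was lower, at 56.0 ± 34.9 CPM in D40 and 194 ± 138 CPM in W40 (SD, n = 4 each), a log2 change of -1.35 (standard error 0.38, edgeR adjusted p = 0.0305). The other 14 were not called, where 14.1% of all genes tested were, so the calls in D40 against W40 are near that share. In D30 against W30 none of the 16 was called by edgeR, with log2 values of -0.46 to 0.37, where 10.3% of all genes tested were called. Toward the tip, 9 of 16 were called higher and 1 lower in W30, where 20.3% of all genes tested were called higher and 36.2% in either direction. LOC_Os05g43170 was at 0.40 (standard error 0.070, edgeR adjusted p = 4.45e-06) per segment. In D30, 0 were higher and 4 lower, near the 24.5% of all genes tested that were called in either direction. The D30 gradient was lower than that of W30 for 5 of 16, among them both other calreticulin loci, and higher for 0, where 3.78% of all genes tested were called lower.

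Over all groups the means of the 9 genes ran close to each other. Over the group means at 30 °C alone, those of bZIP39 and bZIP60 ran against those of the other 7. Over the 20 group means of log2 CPM, r between 2 of them ran from 0.876 to 1.00 over 36 pairs, with a median of 0.980. These points share the heat contrast and the batches, so r is given as a description. The 10 means at 30 °C share the batches and the contrast of D30 with W30. Over them r of bZIP39 or bZIP60 with the other 7 was negative for 14 of 14 pairs, from -0.871 to -0.349. That contrast was called for 0 of 9 genes in whole leaves. Its sign turned without W30 replicate 2 for BiP1, GRP94, calreticulin and calnexin, so this r too is given as a description. There the other 7 had r of 0.757 to 0.992 with each other, and bZIP39 had r = 0.914 with bZIP60. Over the 10 means at 40 °C r was positive for all 36 pairs, from 0.462 to 0.998. Ordered by r with BiP1 among loci of at least 5 CPM, calreticulin, calnexin, GRP94 and PDIL2-3 took places 1 to 4 of 12837, PDIL1-1 place 63, bZIP39 place 227, bZIP50 place 417 and bZIP60 place 874. The 2 loci outside the 9 most like BiP1 were LOC_Os06g05740 with r = 0.997 and LOC_Os06g39260 with r = 0.996 over the 20 means. Their log2 changes in W40 over W30 were 2.95 and 3.58, in that order, and in D40 over D30 3.06 and 3.18.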

How the data were processed

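Poly(A) RNA was sequenced as 80 libraries from 16 leaf pools. Per the submitters' processing notes, Picard 3.1.0, featureCounts 2.0.6 and HISAT2 2.2.1 were used; genome build and batch-correction method were not given in the sources used here. Per the file headers, the authors deposited for each library a raw count, a batch-corrected count (treated as an estimated count) and a batch-corrected FPKM value for every gene. Even values made up 76.9% of raw counts from 1 to 20, so counts may overstate independent fragments.

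Tests on raw counts used edgeR 4.0.16 under R 4.3.3 (TMM, filterByExpr with a minimum count of 10 and a minimum total of 15, quasi-likelihood F tests, Benjamini-Hochberg adjustment over all genes tested, threshold 0.05). Whole-leaf fits summed the 5 segments of a pool and fitted treatment and batch to 16 pools; segment fits used the 16 libraries of a segment. Blade gradients fitted segment position by treatment with leaf pool as a block to 80 libraries. Their p-values and standard errors do not measure how gradients vary between pools. Segments of a pool come from the same leaves, per the labels' protocols. Deviations from the group mean were correlated between libraries over the 12837 loci of at least 5 CPM. The median r was 0.872 within a pool and -0.707 between pools of a treatment. Standard errors are the absolute log2 change over the square root of F. DESeq2 1.42.0 and limma 3.58.1 gave alternatives. Replicates differed by more than sampling noise (lowest chi-square per degree of freedom 9.21 over 120 pairs). The steps were tested on simulated data.

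The 9 genes and the other lists were chosen with earlier results of these data known, and locus IDs of the other lists were entered from general knowledge that no table here checks. Named are all 9 genes, up to 2 other listed loci per direction and comparison with the smallest adjusted p, the 2 loci most like BiP1, and check loci. Reads shared with close relatives may be split between them.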

Additional observations from a re-analysis of the deposited data

Results flagged for a closer look

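Single pools or libraries stood apart from the other 3 of their group in 12 of 216 groups of 4 (past Dixon's limit for 4 values); chance flags about 1 group in 20. Whole-leaf levels did so 4 times of 36: BiP1 in W30 replicate 1 was low at 41.2 CPM, calreticulin was low in W40 replicate 1 at 287.5 CPM and in W30 replicate 1 at 51.3 CPM, and bZIP50 was high in W30 replicate 2 at 13.2 CPM. All 3 of these pools are of batch 1.

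Among single segments of W40 replicate 1 the levels of calnexin in segment 4 (375.4 CPM), calreticulin in segment 4 (291.3 CPM) and bZIP39 in segment 5 (35.8 CPM) were low. In D30, PDIL1-1 was low in segment 4 of replicate 3 at 75.3 CPM and bZIP50 high in segment 5 of replicate 1 at 8.80 CPM. In W30, GRP94 (157.2 CPM) and PDIL2-3 (30.2 CPM) were high in segment 3 of replicate 2, and bZIP39 was low in segment 2 of replicate 1 at 15.9 CPM.

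The heat response was larger in batch 2 than in batch 1 for all 9 genes by the edgeR test of that difference. In drought leaves the log2 difference was 2.07 for BiP1, 2.18 for GRP94, 0.94 for PDIL1-1, 2.07 for PDIL2-3, 1.88 for calreticulin, 1.89 for calnexin, 1.02 for bZIP50, 1.43 for bZIP39 and 2.19 for bZIP60. In well-watered leaves it was 2.78 for BiP1, 2.52 for GRP94, 1.11 for PDIL1-1, 2.70 for PDIL2-3, 1.93 for calreticulin, 2.53 for calnexin, 1.61 for bZIP50, 1.40 for bZIP39 and 1.99 for bZIP60. The drought response of bZIP60 at 40 °C was larger in batch 2 by 0.79.

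Blade gradients were called different between treatments, by p-values that do not measure how gradients vary between pools. The D30 gradient was lower than that of W30 for BiP1 (-0.24), GRP94 (-0.24), PDIL1-1 (-0.28), PDIL2-3 (-0.16), calreticulin (-0.21) and calnexin (-0.17), in log2 units per segment. The D40 gradient was higher than that of D30 for calnexin (0.17) and bZIP60 (0.18). The W40 gradient was higher than that of W30 for bZIP60 (0.12) and lower for calreticulin (-0.16), and the D40 gradient was lower than that of W40 for bZIP50 (-0.22).

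By such p-values gradients were also called different between batches. In W40 the gradient was higher in batch 2 by 0.20 for BiP1, 0.27 for GRP94, 0.23 for PDIL1-1, 0.29 for PDIL2-3, 0.17 for calnexin and 0.39 for bZIP50. In W30 it was higher in batch 2 by 0.21 for BiP1, 0.43 for GRP94, 0.42 for PDIL1-1, 0.25 for PDIL2-3, 0.19 for calreticulin and 0.20 for bZIP50. The difference of D30 from W30 was more negative in batch 2, with batch differences of -0.41 for GRP94, -0.33 for PDIL1-1 and -0.20 for calreticulin.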

How the results depend on the processing

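The heat calls of all 9 genes in whole leaves and in every segment kept their number under each alternative run, except that batch 1 pools fitted by themselves called 5 in W40 over W30 and 8 in D40 over D30. Whole-leaf drought counts did not: in D30 over W30 (0 called) 4 genes were called on the authors' batch-corrected counts, 3 in batch 2 only and 4 as the mean of the batches in a treatment-by-batch fit. In D40 over W40 (0 called) these gave 3, 7 and 4, and limma on FPKM gave 2. The mean of the batches, the batch 1 gradient fits and the gradients by batch were chosen after seeing the data. In batch 2 only, drought calls at 30 °C were 2, 4, 1, 3 and 7 in segments 2 to 6, and those at 40 °C 6, 6, 2, 4 and 8. Interaction calls in batch 2 only were 3 in segment 2 and 4 in segment 3. The interaction calls over all genes are not given here, so these counts cannot be set against them. DESeq2 called 1 in segment 5 at 40 °C and 2 in segment 6 at 30 °C. In segment 6, leaving out the batch term gave 0 at 30 °C and 0 at 40 °C, and a replicate block added to batch gave 0 at 40 °C.

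With no replicate block (leaf pool), gradient calls were 0 in W30, 0 in D30, 1 in W40 and 0 in D40, and 0 for each of the 4 differences. Segment 6 against 2 as a factor gave 0 in D30, 2 in W40, 2 in D40, 1 for W40 minus W30 and 1 for D40 minus D30; limma-voom gave 0 in D30 and 3 in W40. Batch 2 only gave 0 in D30, 0 in D40 and 0 for D40 minus D30. Batch 1 only gave 3 in W30, 3 in D30, 2 in W40, 1 for W40 minus W30, 5 for D40 minus D30, 1 for D30 minus W30 and 3 for D40 minus W40. The batch 1 counts that use W40 rest on its 1 pool there. Except for D40 minus D30 in batch 2 only, counts over all genes in these gradient fits are not given here. The member counts thus cannot be set against them. Same-numbered pools of different treatments deviated alike with a median r of 0.579 (lowest -0.627), against 0.560 for other numbers of the same batch. These medians cannot tell whether same-numbered pools share more than a batch, because W40 replicate 2 is of another batch than replicate 2 of the other treatments. That replicate block added to batch changed no member's call in whole leaves, and took the calls over all genes to 5699 in W40 over W30 (8801 without it), 6809 in D40 over D30 (8646), 1414 in D30 over W30 (2580) and 1039 in D40 over W40 (3547).

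Signs turned as follows. On batch-corrected counts bZIP39 in D40 over W40 was 0.13, and the interactions of PDIL1-1 and bZIP50 were 0.094 and 0.13. bZIP39 in D40 over W40 was 0.093 with FPKM, 0.19 in batch 2 only and 0.098 as the mean of the batches, where the PDIL1-1 interaction was 0.0049. In batch 1 only, bZIP60 in D40 over W40 was -0.0011 and interactions were 0.30 (BiP1), 0.047 (GRP94), 0.096 (PDIL1-1), 0.25 (PDIL2-3), 0.26 (calnexin) and 0.29 (bZIP50). The W30 gradient of bZIP39 was -0.00069 as a factor, -0.0041 with no filter and -0.0038 in batch 2 only, where that of bZIP60 was 0.019 and the D30 gradients of PDIL2-3 and bZIP50 were 0.027 and 0.020. In batch 1 only, W30 gradients were -0.043 (GRP94), -0.012 (PDIL1-1) and -0.018 (PDIL2-3), W40 gradients -0.063 (PDIL1-1), -0.13 (PDIL2-3), -0.063 (calnexin) and -0.0081 (bZIP50), and D40 minus W40 of bZIP50 was 0.11. The cause was not tested.

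Leaving out 1 pool at a time gave 0 to 2 calls in D40 over W40, 0 to 5 and 0 to 1 for the batch differences of drought at 30 °C and 40 °C, 0 to 1 in segment 5 at 40 °C, and 0 to 2 and 0 to 7 in segment 6 at 30 °C and 40 °C. Gradient calls were 0 to 1 in D30, 2 to 8 in W40, 2 to 5 in D40, 1 to 5 for W40 minus W30, 1 to 2 for D40 minus D30 and 0 to 2 for D40 minus W40. In D30 over W30, BiP1 ran from -0.90 to 0.095, GRP94 from -0.58 to 0.15, calnexin from -0.68 to 0.19 and calreticulin from -0.66 to 0.071, and in D40 over W40 bZIP39 ran from -0.21 to 0.10. Interactions ran from -0.94 to 0.039 (BiP1), -0.29 to 0.098 (PDIL1-1), -0.51 to 0.020 (bZIP60) and -0.81 to 0.040 (calnexin). Gradients ran from -0.034 to 0.013 (bZIP50 in D30), -0.011 to 0.016 (bZIP39 in W30), -0.035 to 0.0013 (bZIP60 in W30) and -0.011 to 0.020 (bZIP39, D30 minus W30).

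Counts over all genes moved by over 1.5 times in 129 of 231 alternatives and 136 of 670 fits without 1 pool. In D30 over W30 (2580) they were 4251 with DESeq2, 638 with no batch term and 8458 in batch 2 only; in D40 over W40 (3547), 5610, 1185 and 12265, with 1 in batch 1 only. In W40 over W30 (8801) they were 3308 in batch 1 only and 13478 in batch 2 only, and in D40 over D30 (8646) 5399 and 13082. Batch parts the pools of each treatment, and W40 has 1 pool in batch 1.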
